A study of Mus musculus with 2 samples.

Results

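Follicular-type B cells were picked out of the live cells of adult mouse lungs profiled by 10x single-cell RNA sequencing, and the members were chosen by their measured UMIs of 13 genes. Cells entered the analysis with at least 500 gene UMIs (unique molecular identifiers, one per counted RNA molecule), at least 200 genes and at most 20% mitochondrial UMIs. A cell was called follicular-type when at least 3 of the 6 B cell genes Cd79a, Cd79b, Ms4a1, Ebf1, Bank1 and Pax5 were detected, when it held at least 1 UMI each of Fcer2a (CD23) and Ighd (the IgD heavy chain), and when it held no UMI of Cd3d, Cd3e, Csf1r, Mertk or Ptprb. Of the 29837 cells that passed the filters, 1803 met this rule, 409 of 10495 in the library labelled GFI1 KO and 1394 of 19342 in the library labelled GFI1 WT. The deposited matrices held 10700 and 19515 cells.

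By its label and the study's account of its mice, the KO-labelled library came from a mouse with a germline deletion of Gfi1, which encodes a transcriptional repressor of blood cell development, and the WT-labelled library from a wild-type mouse, both untreated as far as the labels say and kept on the C57BL6/J background. Lungs were perfused and digested with collagenase and DNase, and live cells were sorted with no selection for a cell type, so that B cells of the tissue and B cells left in its vessels could not be told apart. Antibody tags for surface proteins were counted in the same cells. With 1 library per genotype, a difference between genotypes and a difference between mice or libraries cannot be told apart, no test was possible, and every 95% interval given here covers counting error only. Gfi1 RNA itself gave 13 UMIs in 12 of the 409 cells of the KO-labelled library, 9.22 CPM (UMIs scaled to a library total of 1000000), and 39 UMIs in 30 of the 1394 cells of the WT-labelled library, 6.88 CPM. The Gfi1 ratio was 1.34 (0.656 to 2.56) in follicular-type B cells and 2.24 (1.67 to 3.0) in T cells, so that Gfi1 RNA was not lower under the KO label. Whether the counted 3′ end lies outside the deleted part was not tested, and the genotype of the libraries rests on their labels alone.

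Follicular B cells are the recirculating mature B cells that fill the follicles of spleen and lymph nodes. They carry IgM and IgD of one specificity, express the low-affinity IgE receptor CD23 and the complement receptor CD21, follow CXCL13 through CXCR5, and present antigen on MHC class II to helper T cells. In the lung they are found in the blood of its capillaries, in the interstitium and in organised lymphoid tissue of the airways.

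The rule left cells that were clear of its threshold for the 6 B cell genes and close to its threshold for Fcer2a. All 6 genes were detected in 71.9% of the members in the KO-labelled library and in 70.9% in the WT-labelled library, and exactly 3 of them in 3 and 10 cells. A single Fcer2a UMI carried membership in 51.6% and 45.1% of the members, and a single Ighd UMI in 20.3% and 17.4%. Just outside, 321 and 1179 cells failed only for lack of an Fcer2a UMI, 72 and 163 only for lack of Ighd, and 11 and 65 only for 1 UMI of an excluding gene. Cells of the same 6-gene definition with no Fcer2a UMI, 441 and 1544 in number, are called Fcer2a-negative B cells below, and since the Fcer2a count per cell is low, some of them would have been members at greater depth.

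Follicular-type B cells were a smaller part of the KO-labelled library and an equal part of its B cells. They made up 3.90% (3.53 to 4.29) of filtered cells in the KO-labelled library and 7.21% (6.85 to 7.58) in the WT-labelled library, a ratio of 0.541 (0.483 to 0.604). T cells were lower by nearly the same factor, at 6.62% and 12.0%, a ratio of 0.550 (0.504 to 0.599). Counted per T cell there were 0.588 and 0.598 follicular-type B cells, a ratio of 0.984 (0.856 to 1.13). Among the B cells called by the 6 genes, 44.4% (41.1 to 47.6) and 45.0% (43.2 to 46.7) were follicular-type, a ratio of 0.987 (0.882 to 1.10), and the 2 denominators therefore give different pictures. A share of sorted cells moves with every other cell type in the suspension, and the number of B cells in the lung was not measured.

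**Figure D1:**
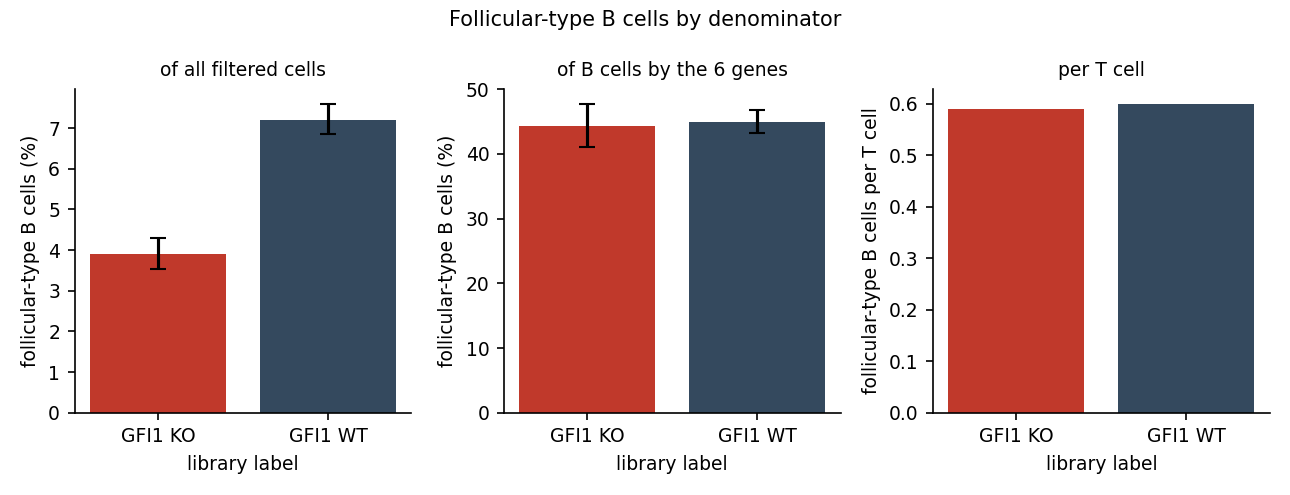
Follicular-type B cells as a percentage of all filtered cells, as a percentage of B cells called by the 6 genes, and per T cell, with 1 bar per library and exact 95% binomial intervals where a percentage is shown. The bars differ over all filtered cells (3.90% and 7.21%) and lie side by side over B cells (44.4% and 45.0%) and per T cell (0.588 and 0.598).

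The cells of both libraries were read to a similar depth. The median was 4171 gene UMIs (range 1758 to 25694) and 1827 genes in the KO-labelled library, and 4470.5 UMIs (1521 to 35547) and 1939.5 genes in the WT-labelled library. Mitochondrial UMIs had a median of 3.53% and 3.13%. Summed over members, 1894529 and 7323528 gene UMIs were available, so that the precision of most levels was set by the KO-labelled library. The doublet caller marked 1 member (0.244%) in the KO-labelled library and 37 (2.65%) in the WT-labelled library.

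A surface protein of B cells was counted on nearly every member. The CD45R/B220 tag, against the CD45 form that B cells carry, had a median of 275 UMIs per cell (31 to 817) in the KO-labelled library and 166.5 (4 to 918) in the WT-labelled library, where T cells had medians of 2 and 3. T cells here are cells with a UMI of Cd3d or Cd3e and none of Cd79a, Cd79b, Ms4a1, Csf1r, Mertk or Ptprb, so that B cell RNA in them is counted after the 3 B cell genes were required to be absent. It exceeded the 99th percentile of the T cells in 406 members (99.3%) of the KO-labelled library and 1371 (98.4%) of the WT-labelled library. Tags for CD4 had medians of 0 and 1, and the isotype control RTK2758 had medians of 1 and 2, so that the B cell tag stood far above the background of the panel. No tag for CD23 or IgD was among those read, and the 2 genes that define the members were therefore not checked at the protein level.

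The B220 tag was higher in the KO-labelled library. The ratio of its medians was 1.65, and in Fcer2a-negative B cells the medians were 236 and 132.5, a ratio of 1.78. The pan-leukocyte tag CD45 was also higher, with medians of 685 and 520 (ratio 1.32), and by the same factor in T cells, with medians of 926 and 688 (ratio 1.35). Taken as a share of each cell's tag UMIs, CD45 was level (58.7% and 57.5%) and B220 kept a ratio of 1.28 (23.6% and 18.4%). The tag for CD196, which is CCR6, had medians of 10 UMIs in members and 3 in T cells of the KO-labelled library, and of 12 and 9 in the WT-labelled library. The PE-streptavidin tag was lower in the KO-labelled library in both kinds of cell, with medians of 16 and 28 UMIs in members and 19 and 30 in T cells.

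**Figure D2:**
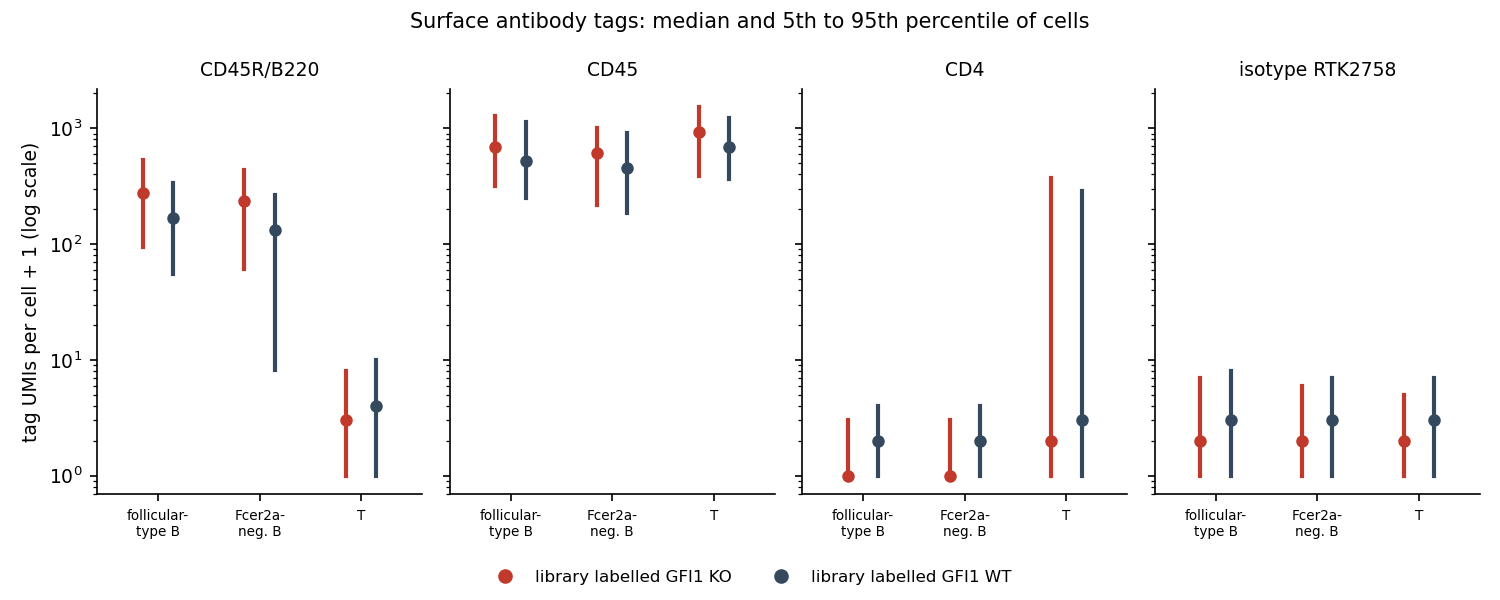
Surface antibody tags in follicular-type B, Fcer2a-negative B and T cells, as tag UMIs per cell plus 1 on a log scale, with points at the median and lines from the 5th to the 95th percentile of cells, for each library. CD45R/B220 separates both B cell groups from T cells, CD45 is found on all 3 groups, and CD4 and the isotype control stay near the bottom on B cells.

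Known genes of follicular B cells that the rule did not use were also high in the members. Levels below are CPM of UMIs summed over the members of a library, leaving ribosomal, mitochondrial and predicted (Gm) genes out of the total. Cr2, the complement receptor CD21, stood at 155 CPM in the KO-labelled library and 198 CPM in the WT-labelled library, at least 19.6 times its level in all other cells of the same library. Fcmr, the Fc receptor for IgM, stood at 653 and 591 CPM (16.1 times), Fcrl1, a coreceptor of naive B cells, at 244 and 289 CPM (17.1 times), and Ccr6, the receptor for CCL20, at 185 and 134 CPM (15.1 times). Among the 15 genes most raised over all other cells in both libraries were also genes best known outside the immune system, such as Gad1, a glutamate decarboxylase, at 29.1 and 50.3 CPM (18.4 times) and Hcrtr2, an orexin receptor, at 28.4 and 39.3 CPM (18.1 times). Cr2 was detected in 29.8% and 39.2% of members and in 0.144% and 0.300% of T cells. Cxcr5 was detected in 51.6% and 62.0% of members against 6.19% and 4.68% of T cells. After thinning every cell to 1500 UMIs it was detected in 23.0% and 31.6% of members. Fcer2a-negative B cells held Cxcr5 in 46.7% and 56.5% of cells, and Cr2 in 16.8% and 29.4%.

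Set beside the Fcer2a-negative B cells of the same library, the members had more RNA of most MHC class II genes. They had less of most counted genes of the B-1, plasma cell, marginal zone, transitional and memory lists. Cr2 was 1.94 times as high in the members of the KO-labelled library and 1.5 times in the WT-labelled library, Ccr6 1.55 and 1.69 times, Icosl, the ligand of ICOS on helper T cells, 1.45 and 1.45 times, and Fcrl1 1.21 and 1.44 times. Lower in the members were the costimulatory ligand Cd80 (0.233 and 0.270 times), the tetraspanin Cd9 (0.369 and 0.435 times), the beta 1 integrin Itgb1 (0.589 and 0.403 times) and Mzb1, an endoplasmic reticulum protein of IgM-secreting cells (0.711 and 0.529 times). Of the MHC class II list 14 of 17 genes were higher in the members of both libraries and 2 lower, where over all 6993 genes compared 2211 were higher in both and 2026 lower. Of the 8 genes of the B-1 list only Ctla4, Plscr1 and Ahnak had enough UMIs to be compared, and all 3 were lower in both. The plasma cell list had 4 of 5 lower in both, the transitional list 3 of 4 and the memory list 3 of 5, with none higher in both. The marginal zone list had 4 of 6 lower in both and 1 higher, and the immunoglobulin constant list 5 of 6 lower and 1 higher. These are descriptions of how the rule divides B cells, with no test.

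Nearly all members of both libraries held IgM heavy chain RNA and few held a switched heavy chain, while Ighd was required by the rule. Ighm was detected in 99.5% and 99.6% of members, against 240 of 695 and 1165 of 2330 T cells, and any switched heavy chain in 8 of 409 cells of the KO-labelled library (interval 0.848% to 3.82%) and 37 of 1394 cells of the WT-labelled library (1.88% to 3.64%). Among Fcer2a-negative B cells, which were not chosen on Ighd and held it in 72.8% and 76.4% of cells, the switched shares were 4.54% and 4.92%, and since the rule asks for Ighd this is a description of how it divides B cells. More Ighd than Ighm UMIs were found in 8.07% and 8.39% of members.

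Each B cell normally uses one light chain, kappa or lambda, and mouse B cells mostly use kappa. Among members with at least 3 light chain UMIs, lambda exceeded kappa in 37 of 409 cells (9.05%, 6.45 to 12.3) of the KO-labelled library and 115 of 1391 cells (8.27%, 6.87 to 9.84) of the WT-labelled library, a ratio of 1.09 (0.734 to 1.60). In the Fcer2a-negative B cells it did so in 12.2% and 12.4%. Iglc1 was the leading lambda gene in 24 of the 37 lambda cells of the KO-labelled library and in 49 of the 115 of the WT-labelled library, and Iglc2 in 9 and 56. A lambda share between 20 and 80 percent was seen in 29.8% and 37.2% of members. Iglc2 and Iglc3 are close copies of each other, so that reads can be split between them. Igkc was found in 4.17% and 9.18% of T cells, which gives the level at which light chain RNA was counted in cells that do not make it.

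The RNA of the members was much the same in both libraries. Of 8951 genes with at least 50 UMIs over both libraries, 8027 (89.7%) were within 1.5-fold, the median log2 ratio of the KO-labelled over the WT-labelled library was 0.00, and the 5th and 95th percentiles were −0.62 and 0.57. Past 2-fold, 48 genes were higher in the KO-labelled library (0.536% of genes tested) and 183 lower (2.04%). The minimum was set on UMIs of both libraries together, of which the WT-labelled library held 5669716 and the KO-labelled library 1410724. It therefore favours genes that are high in the WT-labelled library. With no filter on low counts the numbers of higher and lower genes were near each other, as given below. No conclusion is drawn from 183 beside 48. Of the 3112 genes with at least 500 UMIs, none was past 2-fold higher and 16 were past 2-fold lower. In 51 of the 183 lower genes, 3 cells held more than 50% of the UMIs of the WT-labelled library. The same held for 69 of all genes tested. Of the 183, 18 had no UMI in the KO-labelled library.

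**Figure D3:**
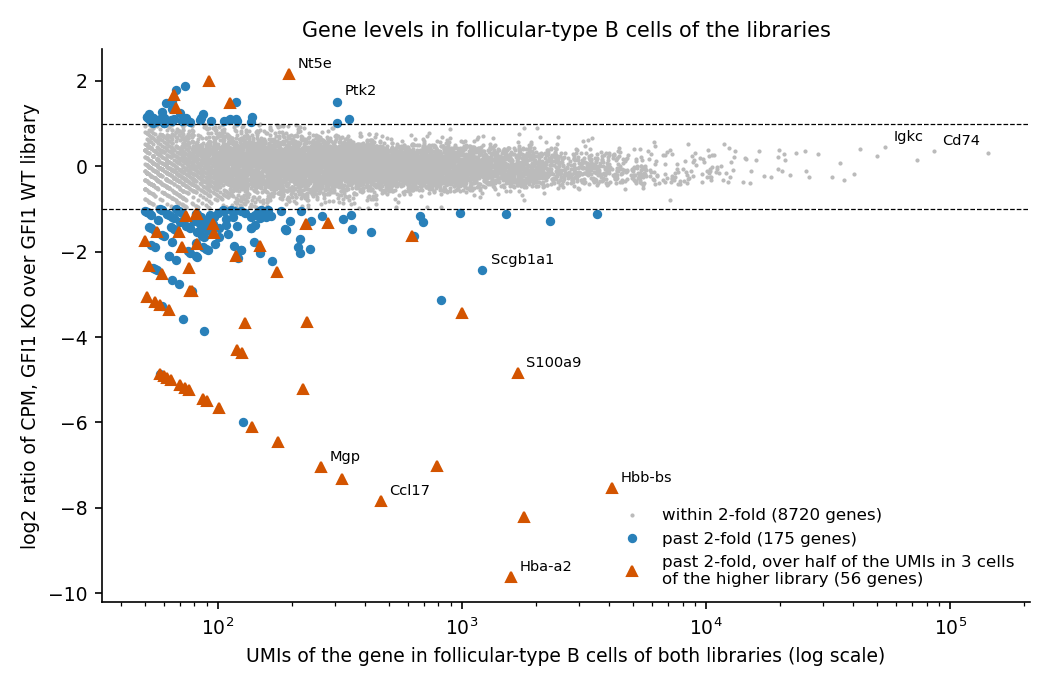
Log2 ratio of CPM in follicular-type B cells, KO-labelled over WT-labelled library, against the gene's UMIs over both libraries on a log scale, with 1 point per gene and dashed lines at 2-fold. Of the 8951 genes 8720 lie within 2-fold, the abundant genes Cd74 and Igkc have log2 ratios of 0.35 and 0.45, and triangles mark the 56 genes past 2-fold, 51 lower and 5 higher, for which over 50% of the UMIs of the higher library lay in 3 cells.

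The 10 genes highest in the KO-labelled library were ranked by the bound of their interval nearer to 1, and 3 of them were genes of dividing cells that very few members held. Mki67 had 46 UMIs in 4 cells and 66 UMIs in 16 cells, Ube2c 46 UMIs in 2 cells and 46 UMIs in 10 cells, and Cenpf 29 UMIs in 1 cell and 37 UMIs in 7 cells. The share of members with a UMI was lower in the KO-labelled library for all 3, at 0.978% and 1.15% for Mki67, 0.489% and 0.717% for Ube2c, and 0.244% and 0.502% for Cenpf, so that their ratios of 2.80, 4.02 and 3.15 rest on single cells.

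Nt5e, the ectonucleotidase CD73 that turns AMP into adenosine, had the highest ratio. It gave 103 UMIs in 24 cells (73.0 CPM) of the KO-labelled library and 93 UMIs in 34 cells (16.4 CPM) of the WT-labelled library, a ratio of 4.45 (3.33 to 5.96). In the KO-labelled library 60.2% of these UMIs lay in 3 cells. Counted by cells, Nt5e was found in 5.87% and 2.44% of members (3.18% and 0.861% after thinning to 1500 UMIs), against 29.8% and 23.2% of T cells. With the members over 10000 UMIs left out, its log2 ratio went from 2.15 to 1.48. It was 1.71 with Ighd not required and 2.93 with 2 Fcer2a UMIs needed. The Nt5e ratio was 2.58 (2.06 to 3.22) in Fcer2a-negative B cells and 1.24 (1.11 to 1.39) in T cells.

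The other 6 of the 10 genes were each found in at least 25 members of the KO-labelled library. Ptk2, the focal adhesion kinase, gave 127 UMIs in 89 cells (90.0 CPM) of the KO-labelled library and 179 UMIs in 133 cells (31.6 CPM) of the WT-labelled library, a ratio of 2.85 (2.25 to 3.60), and its ratio in T cells was 0.991 (0.773 to 1.26). Cdc42bpb, a kinase that acts under the small GTPase CDC42, gave 35 UMIs in 32 cells and 38 UMIs in 32 cells, 24.8 and 6.70 CPM, a ratio of 3.7 (2.27 to 6.02). Prss12, a serine protease, stood at 34.7 and 12.2 CPM, with a ratio of 2.85 (1.94 to 4.18). The ratios of Cdc42bpb and Prss12 were also above 1 in T cells, at 7.29 (4.76 to 11.4) and 3.61 (3.09 to 4.22), and so was that of Septin10, a septin of the cytoskeleton, at 3.46 (2.07 to 5.75) in members and 6.08 (3.76 to 10.0) in T cells. The noncoding RNA 2610035D17Rik, the best counted of the 10, gave 642 and 1379 UMIs, 455 and 243 CPM, a ratio of 1.87 (1.70 to 2.06), was found in 54.8% and 39.0% of members, and had ratios of 2.06 in Fcer2a-negative B cells and 1.41 in T cells. Lgals3, the lectin galectin-3, stood at 84.4 and 39.5 CPM, with a ratio of 2.14 (1.69 to 2.68), with 3.89 (3.56 to 4.24) in T cells. Of these 6 genes, Ptk2 was the one whose T cell interval included 1. In Fcer2a-negative B cells the ratio of Ptk2 was also above 1, at 1.68 (1.29 to 2.18). The ratios there were 1.74 (1.09 to 2.72) for Cdc42bpb, 3.65 (2.12 to 6.20) for Prss12 and 2.43 (2.01 to 2.92) for Lgals3. For Septin10 it was 1.35 (0.723 to 2.39), an interval that included 1.

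Most genes of the MHC class II and antigen presentation list had slightly higher levels in the KO-labelled library. Of its 17 genes, all with at least 50 UMIs, 14 had a log2 ratio above 0, the list's median log2 ratio was 0.28 against 0.00 for all genes (0.01 against −0.16 when shares of cells with a UMI are compared in place of levels), none was past 2-fold higher (0.536% of all genes) and 1 was past 2-fold lower (2.04% of all genes). The summed level of the list was 32558 CPM in the KO-labelled library and 26159 CPM in the WT-labelled library. Cd74, the invariant chain that guides class II molecules, stood at 14616 and 11469 CPM, with a ratio of 1.27 (1.25 to 1.29). Thinned to 1500 UMIs, members of the KO-labelled library held a median of 17 Cd74 UMIs (5th to 95th percentile 8 to 28) and those of the WT-labelled library 13 (5 to 23), so that the distributions overlapped widely.

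The class II chains followed the same pattern. H2-Aa stood at 4739 and 3895 CPM, with a ratio of 1.22 (1.18 to 1.25), H2-Ab1 at 3916 and 3156 CPM, a ratio of 1.24 (1.20 to 1.28), and H2-Eb1 at 3460 and 2649 CPM, a ratio of 1.31 (1.26 to 1.35). Ifi30, a reductase of the antigen processing compartment, had a ratio of 1.5 (1.35 to 1.65), and Ctss, the protease that cleaves the invariant chain, one of 1.32 (1.22 to 1.42). Ciita, the coactivator that switches on class II genes, did not share the difference, with 144 and 154 CPM and a ratio of 0.932 (0.796 to 1.09). In Fcer2a-negative B cells the ratios of Cd74, H2-Aa and H2-Eb1 were 1.34, 1.31 and 1.37. In T cells, which make little class II, they were 0.263, 0.270 and 0.208, and the part of RNA from other cells in the difference was not tested. Cd80 was the member past 2-fold, at 18 and 180 UMIs, 12.8 and 31.7 CPM, a ratio of 0.402 (0.233 to 0.654). Cd80 met the minimum count through the WT-labelled library alone, which favours genes that are high there.

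Class II promoters carry a short conserved Y box, to which the factor NF-Y binds. The letters CTGATTGG (CCAATCAG on the other strand) were searched on both strands of the 300-base RefSeq promoters of build GRCm38.p6, from 250 bases before to 50 after each gene's start, while the counts were made on GRCm39. They occur in 1346 of 32851 promoters (4.10%) and in 3 of the 11 genes of the list that have a promoter there, H2-Aa, H2-Eb1 and H2-Oa, a search that requires an exact match and says nothing of the others. The promoters of 2 chains with higher levels in the KO-labelled library are shown for their sequence context, with the Y box in capitals. That of H2-Aa lies at chr17:34287774-34288073 on the minus strand with the Y box beginning 51 bases before the start, and that of H2-Eb1 at chr17:34305617-34305916 on the plus strand with the Y box 62 bases before the start. A match is a description of the sequence, and factor binding was not measured.
H2-Aa promoter: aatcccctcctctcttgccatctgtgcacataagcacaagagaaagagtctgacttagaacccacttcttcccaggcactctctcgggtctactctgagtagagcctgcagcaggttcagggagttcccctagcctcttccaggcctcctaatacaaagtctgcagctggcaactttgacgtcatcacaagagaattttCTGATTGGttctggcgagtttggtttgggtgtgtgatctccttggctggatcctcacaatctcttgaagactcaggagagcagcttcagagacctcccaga
H2-Eb1 promoter: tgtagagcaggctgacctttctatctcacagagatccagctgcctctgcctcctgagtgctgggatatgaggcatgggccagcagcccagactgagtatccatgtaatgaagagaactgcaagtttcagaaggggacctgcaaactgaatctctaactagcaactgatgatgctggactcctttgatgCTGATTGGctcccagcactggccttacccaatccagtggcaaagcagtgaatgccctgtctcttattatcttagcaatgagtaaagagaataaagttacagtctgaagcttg

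None of the 14 genes of the B cell receptor and its coreceptors was past 2-fold higher or lower (0.536% and 2.04% of all genes), and their median log2 ratio was 0.17. The signalling chains Cd79a and Cd79b, which belong to the rule, stood at 2842 and 2208 CPM and at 1227 and 949 CPM. Cd37, a tetraspanin, had a ratio of 1.31 (1.23 to 1.40) and Siglecg, an inhibitory lectin of the receptor, 1.35 (1.20 to 1.51), whereas the inhibitory Cd22 had 0.907 (0.790 to 1.04). The complement receptor Cr2 was lower, with a ratio of 0.782 (0.673 to 0.905).

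Downstream of the receptor, none of 18 signalling genes was past 2-fold higher or lower (0.536% and 2.04% of all genes), and the median log2 ratio was −0.04. Bcl10, which links the receptor to NF-kappaB, had the highest ratio of those named, 1.40 (1.19 to 1.64), and Prkcb, the protein kinase upstream of it, 0.806 (0.765 to 0.848). Among the 6 immunoglobulin constant genes with enough UMIs, Igkc had 9701 and 7094 CPM, a ratio of 1.37 (1.34 to 1.39), Iglc1 a ratio of 1.58 (1.46 to 1.70), and Ighm one of 0.928 (0.895 to 0.961). The Igkc ratio pointed the other way in Fcer2a-negative B cells, at 0.768 (0.754 to 0.781), and in T cells, at 0.523 (0.366 to 0.728), and the differences between these ratios were not tested.

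None of 25 transcription factors of B cells was past 2-fold higher or lower (0.536% and 2.04% of all genes), and their median log2 ratio was −0.07. Having none past 2-fold in a list of this size lies near those shares. Klf2, which keeps lymphocytes quiescent and recirculating, was highest, at 2202 and 1535 CPM with a ratio of 1.43 (1.38 to 1.49). It was also higher in Fcer2a-negative B cells, with a ratio of 1.52 (1.46 to 1.59), and slightly lower in T cells, with 0.945 (0.916 to 0.975). Foxp1 had a ratio of 0.799 (0.777 to 0.821), and the rule genes Pax5 and Ebf1 had 0.756 (0.705 to 0.809) and 0.886 (0.864 to 0.909). The ratios of other factors of B cells were 1.05 (0.855 to 1.29) for Tcf3, 1.01 (0.936 to 1.09) for the coactivator Pou2af1 and 1.04 (0.962 to 1.12) for Ikzf3. Id2, an inhibitor of E proteins, was lowest at 42.5 and 83.6 CPM, a ratio of 0.509 (0.382 to 0.666). Of the GFI1 factors and the proteins GFI1 works with, none of 8 genes was past 2-fold higher or lower (0.536% and 2.04% of all genes). Their median log2 ratio was −0.07. Gfi1b had no UMI in either library, which allows up to 3 UMIs.

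Among 16 genes of homing and positioning, none was past 2-fold higher or lower (0.536% and 2.04% of all genes), and the median log2 ratio was −0.12. Receptors that guide B cells into and out of lymphoid tissue had ratios of 1.14 (1.06 to 1.22) for Ccr7, 0.852 (0.763 to 0.951) for Cxcr5 and 0.979 (0.870 to 1.10) for the exit receptor S1pr1. Higher were S1pr4 at 1.49 (1.17 to 1.89), the cannabinoid receptor Cnr2 at 1.36 (1.18 to 1.55) and Ccr6 at 1.39 (1.20 to 1.60), and lower was the alpha 4 integrin Itga4 at 0.701 (0.650 to 0.755). The CD196 tag had medians of 10 and 12 UMIs in members, beside 3 and 9 in T cells.

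Ccr6 had 2 promoters in the RefSeq table, and 1 of them held the octamer, the motif of OCT1, which most cell types express, and of OCT2, which is typical of B cells. The letters ATGCAAAT (ATTTGCAT on the other strand) occur in 570 of 32851 promoters (1.74%). The promoter at chr17:8235793-8236092 on the plus strand is shown for that reason, with the octamer, which here reads on the other strand and lies 68 bases before the start, in capitals.
Ccr6 promoter: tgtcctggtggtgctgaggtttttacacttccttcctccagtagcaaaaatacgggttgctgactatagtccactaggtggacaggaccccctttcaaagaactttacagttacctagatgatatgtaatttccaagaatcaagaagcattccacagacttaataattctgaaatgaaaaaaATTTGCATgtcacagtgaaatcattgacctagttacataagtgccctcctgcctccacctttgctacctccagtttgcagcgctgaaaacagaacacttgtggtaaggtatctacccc

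Of 20 genes of survival and cytokine signalling 1 was past 2-fold lower (2.04% of all genes) and none higher (0.536% of all genes), with a median log2 ratio of 0.02. Tnfrsf13c, the receptor for BAFF on which follicular B cells depend, had a ratio of 1.07 (0.871 to 1.32), Bcl2 one of 0.769 (0.694 to 0.850) and the cytokine receptor chain Il2rg one of 1.43 (1.31 to 1.57). Bcl2l1, which encodes the survival factor BCL-XL, gave 2 UMIs in the KO-labelled library and 67 in the WT-labelled library, a ratio of 0.120 (0.0142 to 0.451), and in Fcer2a-negative B cells the ratio was 1.99 (1.30 to 2.99). Bcl2l1 met the minimum count through the WT-labelled library alone, which favours genes that are high there, and no conclusion is drawn from its ratio.

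Heat shock genes were the list with the highest median among those of B cells and of cell states. Of 10 genes 8 had a log2 ratio above 0, none was past 2-fold higher (0.536% of all genes) and 1 past 2-fold lower (2.04%), with a median of 0.42, or 0.12 when shares of cells are compared. The chaperone Hsp90ab1 stood at 2205 and 1642 CPM, with a ratio of 1.34 (1.29 to 1.40), Hspa8 had a ratio of 1.39 (1.31 to 1.47), Dnaja1 1.61 (1.48 to 1.76) and Hsph1 1.51 (1.31 to 1.74). The inducible Hspa1a went the other way, with 9 and 84 UMIs and a ratio of 0.431 (0.190 to 0.857). Hspa1a met the minimum count through the WT-labelled library alone, which favours genes that are high there. The summed level of the list was 5786 and 4255 CPM in members, 5949 and 5027 CPM in Fcer2a-negative B cells, and 7802 and 5563 CPM in T cells, so that the list was higher in the KO-labelled library in all 3 groups of cells. The part of tissue handling in it was not tested.

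Immediate-early genes, which dissociation can switch on, had no member past 2-fold higher or lower among 21 (0.536% and 2.04% of all genes). Their median log2 ratio was 0.07. Fos had a ratio of 1.13 (1.01 to 1.26), Junb 1.13 (1.08 to 1.19), the phosphatase Dusp2 1.47 (1.32 to 1.64), and Fosb 0.576 (0.421 to 0.774). Interferon-stimulated genes had none past 2-fold higher or lower among 16 (again 0.536% and 2.04% of all genes), with a median of 0.07. Late cell cycle genes, at least 2 of 7 in a cell thinned to 1500 UMIs, marked 2 members (0.489%) of the KO-labelled library and 5 (0.359%) of the WT-labelled library, against 2.46% and 1.94% of T cells.

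Of the markers of other B cell states, 7 were past 2-fold lower in the KO-labelled library and 1 past 2-fold higher. Over all genes the shares were 2.04% and 0.536%. All 7 lower genes had few UMIs in the KO-labelled library, from 3 for Itgax to 33 for Cd9. They met the minimum count through the WT-labelled library alone, which favours genes that are high there. No conclusion is therefore drawn from the count of 7 beside the 2.04%. Of 4 germinal centre genes 2 were past 2-fold lower, Rgs13, which damps chemokine receptors, with 5 and 86 UMIs and a ratio of 0.234 (0.0740 to 0.567), and Basp1 with 9 and 139 UMIs and a ratio of 0.260 (0.117 to 0.508). Of 8 memory and age-associated genes 3 were past 2-fold lower (Fcrl5, Itgax and Cd80) and 1 higher (Nt5e), with Fcrl5, an Fc receptor-like protein, at 14 and 128 UMIs and a ratio of 0.440 (0.234 to 0.765), and the integrin Itgax at 3 and 52 UMIs and a ratio of 0.232 (0.0463 to 0.716). Cd9, on the marginal zone list, gave 33 and 389 UMIs, a ratio of 0.341 (0.231 to 0.487), and Myb, on the transitional list, 9 and 99 UMIs, a ratio of 0.365 (0.162 to 0.722). The other 6 of 7 marginal zone genes, 4 of 5 transitional genes, all 6 B-1 genes and all 7 plasma cell genes with enough UMIs lay within 2-fold. The germinal centre median log2 ratio of −1.14 became −0.46 without members over 10000 UMIs, −0.50 with Ighd not required and −0.41 at 20 UMIs per gene, and the memory median of −0.47 became −0.16 with 2 Fcer2a UMIs needed and −0.21 with doublets left out. Cd9 was found in 5.62% and 14.9% of members and had ratios of 0.406 in Fcer2a-negative B cells and 0.343 in T cells.

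**Figure D4:**
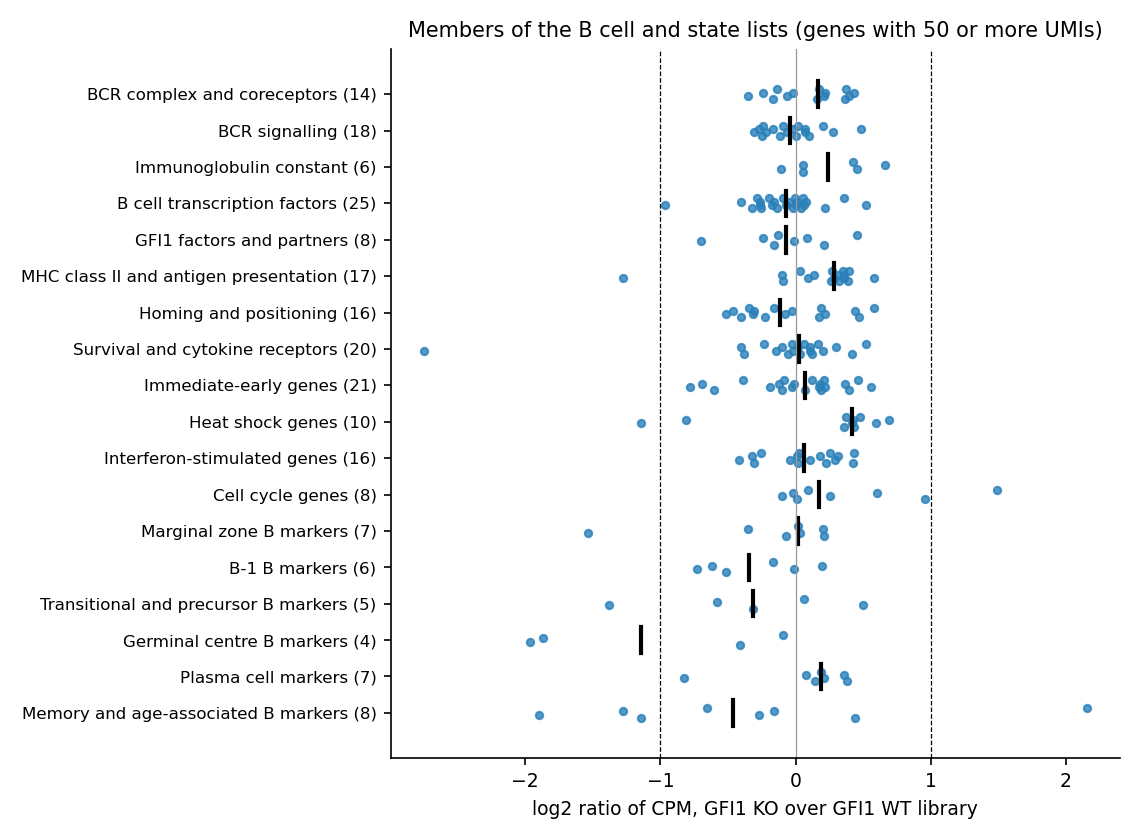
Log2 ratio of CPM, KO-labelled over WT-labelled library, for the genes with at least 50 UMIs in each list of B cell and cell state genes, with 1 point per gene, black bars at the list's median and dashed lines at 2-fold. The medians of the heat shock (0.42) and MHC class II (0.28) lists lie furthest above 0, those of the germinal centre (−1.14, over 4 genes) and memory (−0.47) lists furthest below, and most points lie between the dashed lines.

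The 10 genes lowest in the KO-labelled library were genes known mainly from other cell types, with most of their UMIs in the WT-labelled library in 3 cells (59.6% for S100a9 to 99.6% for Hba-a1). S100a9 was found in 8.32% of members of that library and the other 9 genes in 0.430% to 2.44%. Hbb-bs, a beta globin, gave 5 UMIs in 5 cells of the KO-labelled library and 4119 UMIs in 20 cells of the WT-labelled library, 99.4% of them in 3 cells, a 205-fold lower level. Hba-a2, an alpha globin, gave none and 1589 UMIs, at least 132-fold lower against a floor of 3 UMIs in the KO-labelled library, Hba-a1 1 and 1784 UMIs with a ratio of 0.00225 (5.7e-05 to 0.0126), and Hbb-bt 1 and 787 UMIs with a ratio of 0.00511 (0.000129 to 0.0285). The chemokines Ccl17 and Ccl22, made by activated dendritic cells, gave none in the KO-labelled library and 463 UMIs in 13 cells and 322 UMIs in 6 cells of the WT-labelled library, at least 38.4-fold and 26.7-fold lower. Mgp and Dcn, matrix genes of fibroblasts, gave 0 and 265 UMIs (at least 22.0-fold lower) and 1 and 222 UMIs, a ratio of 0.0181 (0.000456 to 0.102). The neutrophil genes S100a9 and Retnlg gave 14 and 1672 UMIs, a 29.7-fold lower level, and 0 and 176 UMIs, at least 14.6-fold lower.

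Summed over whole lists, neutrophil, red cell and fibroblast genes were lower in the KO-labelled library. The neutrophil median log2 ratio of −3.44, over 5 genes, became 0.21 with doublets left out. With a wider list of excluding genes it became 0.092, over 3 genes in both cases. The 16 neutrophil and granule genes summed to 45.4 CPM in members of the KO-labelled library, with 8 at 0 and S100a8 most abundant, and to 536 CPM in the WT-labelled library, with 3 at 0 and S100a9 most abundant. The 7 red cell and platelet genes summed to 7.09 and 1464 CPM, with 2 and 1 at 0 and Hbb-bs most abundant in both. The 8 fibroblast and mural genes summed to 0.709 and 117 CPM, with 7 and 0 at 0 and Dcn and Mgp most abundant. The genes of these lists with at least 50 UMIs were few, 5, 4 and 3, and most reached that number only through the WT-labelled library, so that no count of them is given. In T cells the red cell list was level, at 5.51 and 6.14 CPM, the fibroblast list stood at 42.5 and 223 CPM, and the neutrophil list at 698 and 935 CPM.

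Leaving out the called doublets moved some of these genes and not others. S100a9 went from a log2 ratio of −4.84 to −1.14. The globins Hba-a1, Hba-a2, Hbb-bs and Hbb-bt and Retnlg no longer had 50 UMIs. Ccl17, Ccl22, Mgp and Dcn had log2 ratios of −7.91, −7.39, −6.21 and −4.78. With a wider list of excluding genes none of these 4 still had 50 UMIs, and with the members over 10000 UMIs left out Ccl17 and Ccl22 did not, while Mgp and Dcn had −6.90 and −4.20. The count of genes past 2-fold lower went from 183 to 129. Without the members over 10000 UMIs 126 were lower. S100a9 was found in 3.42% and 8.32% of members and in 4.32% and 10.5% of T cells.

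Scgb1a1, the secretory protein of airway club cells, was spread over members in a different way. It gave 53 UMIs in 8.80% of members of the KO-labelled library and 1156 UMIs in 47.8% of members of the WT-labelled library, 37.6 and 204 CPM, a ratio of 0.184 (0.137 to 0.243). After thinning to 1500 UMIs the shares were 3.18% and 20.5%. T cells held it in 9.06% and 48.3% of cells, or 24 of 691 and 417 of 2319 after thinning, and their ratio was 0.0186 (0.0151 to 0.0227). The 10 epithelial genes summed to 47.5 and 235 CPM in members, with 7 and 1 at 0 and Scgb1a1 most abundant in both.

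Monocyte genes had a higher sum in the KO-labelled library. The 10 monocyte genes summed to 313 and 193 CPM in members, with 2 and 1 at 0 and Lyz2 most abundant in both. None of 5 was past 2-fold higher or lower (0.536% and 2.04% of all genes). Lyz2, the lysozyme of monocytes and macrophages, gave 281 and 614 UMIs, a ratio of 1.84 (1.59 to 2.12), and its ratio was 2.94 (2.71 to 3.19) in T cells. T cell genes themselves were near absent, with 12 genes summing to 39.0 and 37.7 CPM in members against 7212 and 5821 CPM in T cells, with 7 and 2 at 0 and Lck most abundant in both, and Cd3d and Cd3e at 0 by the rule. The NK list summed to 408 and 543 CPM, led by Gzma and Ccl5 with none at 0 (its median log2 ratio of 0.048 became 3.03 with doublets left out and −4.39 without members over 10000 UMIs), the alveolar macrophage list to 91.4 and 134 CPM, led by Chil3 with 2 and 1 at 0, the dendritic cell list to 43.2 and 72.8 CPM, led by Flt3 with 4 and 0 at 0, and the endothelial list to 485 and 633 CPM, led by Pecam1 with 4 and 1 at 0. Pecam1 and Flt3 are also expressed by B cells. The part of RNA from other cells in the difference of any list was not tested.

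**Figure D5:**
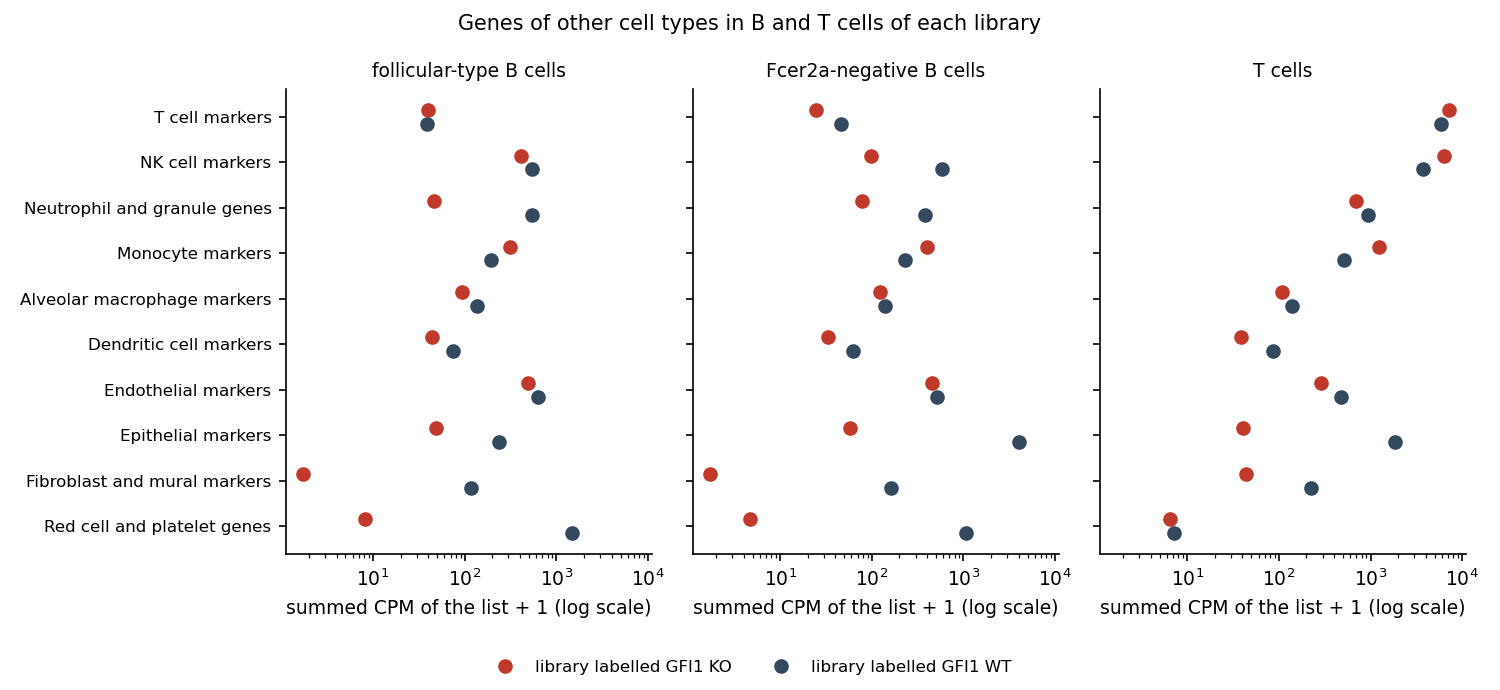
Summed CPM plus 1, on a log scale, of 10 lists of genes of other cell types in follicular-type B, Fcer2a-negative B and T cells, with 1 point per library. Neutrophil, epithelial, fibroblast and red cell genes are lower in both B cell groups of the KO-labelled library, monocyte genes are higher in all 3 groups, and T cell genes stand high in the T cells.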

How the data were processed

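The authors deposited, for each of the 2 lung libraries, a sparse matrix that gives each cell's raw UMI counts of 33696 genes and 18 antibody tags, made from Single Cell 3′ v3 libraries, and lists of barcodes and feature names, which are text labels. The submitters' processing notes name Cell Ranger 9.0.1 and the build GRCm39 (mm39). The study's methods state duplicates per genotype, and 1 library per genotype was analysed here. The libraries shared 74 barcodes, and 1 barcode was that of a follicular-type B cell in both.

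The filters and the rule are given above. Fcer2a-negative B cells met the 6-gene rule without Fcer2a. The members, the 28 gene lists and the tests were chosen with earlier results of these data known. UMIs were summed per library and scaled to CPM over genes other than the 9538 ribosomal, mitochondrial and predicted genes. Ratios were given for genes with at least 50 UMIs over both libraries, log2 ratios with 0.5 UMIs added, and genes past 2-fold were counted with no test. Intervals at 95% were exact Poisson for levels, Clopper-Pearson for shares and exact conditional binomial for ratios, and log-normal for cells per T cell. Shares of cells were repeated after thinning to 1500 UMIs per cell. Doublets were called with Scrublet in each library and kept. The text names the 10 highest and 10 lowest genes by the interval bound nearer 1, members of the lists, the 15 genes most raised over all other cells, Gfi1, Gfi1b and the genes of the rule. Promoter sequences were those of RefSeq for GRCm38.p6. Calculations were tested on simulated data and used Python 3.11.15 with numpy 2.4.6, scipy 1.17.1, pandas 2.3.3, scanpy 1.11.5 and matplotlib 3.10.9. A tag and some genes of the lists are not reported here by name. Alternatives changed the filters, the rule, the scaling, the count minimum, the treatment of doublets and the unit of the tags.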

Additional observations from a re-analysis of the deposited data

How the results depend on the processing

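Each library was the only one of its genotype, so that no replicate could be left out. No paired analysis was possible because each group held 1 library and the labels give both the number 1. Leaving out members over 10000 UMIs and comparing shares of cells with a UMI were chosen after seeing the data. Of the 82 alternative values for the counted results, 57 stayed within set limits and 25 moved. A count of genes stayed when it changed by at most 1.5-fold. A ratio or a percentage stayed when it lay inside the interval of the main value, so that the limits differ between kinds of result. The ratio of shares of filtered cells was 0.477 with 2 Fcer2a UMIs needed and 0.987 over B cells by the 6 genes, against 0.541. The counts of genes past 2-fold (48 higher, 183 lower) were 31 and 75 with cells thinned to 1500 UMIs before the rule, 166 and 451 at 20 UMIs per gene, 3 and 34 at 200 UMIs, and 1289 and 1345 with no filter on low counts. With a wider list of excluding genes 100 were lower, and by shares of cells 17 were higher. Genes within 1.5-fold were 81.5% with thinning, 87.1% with 2 Fcer2a UMIs, 87.5% by the mean of per-cell CPM and 88.9% by shares of cells, against 89.7%. List genes past 2-fold, 11 in the lists of B cell and state genes, were 3 with thinning, 7 with wider exclusion, 6 without members over 10000 UMIs, 7 by per-cell CPM, 6 by shares of cells, 19 at 20 UMIs, 1 at 200 UMIs and 29 with no filter. Fewer genes were tested with thinning and at 200 UMIs, and more at 20 UMIs and with no filter. As a share of tag UMIs the B220 ratio was 1.28 instead of 1.65. Of named genes, log2 ratios reversed for Mki67 with doublets left out (−0.40) and, by shares of cells, for Ube2c (−0.30), Mki67 (−0.11) and Cenpf (−0.55). The median of the neutrophil list reversed to 0.21 with doublets left out, over 3 genes in place of 5, and to 0.092 with wider exclusion. The median of the cell cycle list (0.17) became −0.024 with thinning, −0.21 with wider exclusion, −0.0046 without members over 10000 UMIs and −0.069 by shares of cells. That of the NK list (0.048) became 3.03 with doublets left out, −4.39 without members over 10000 UMIs and −1.48 with 2 Fcer2a UMIs. The causes of the other changes were not tested. The MHC class II and heat shock medians were 0.01 and 0.12 by shares of cells, against 0.28 and 0.42, and above 0 under each other alternative run. Depth limited low genes most, since the KO-labelled library held 1410724 UMIs for levels against 5669716.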

Other observations

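Variable region genes were sparsely counted, as 3′ reads seldom reach them. In members of the KO-labelled library 71 Ighv UMIs fell on 35 of 183 genes in 61 cells, and in the WT-labelled library 178 UMIs fell on 63 genes in 155 cells. For the kappa chain there were 109 Igkv UMIs in 77 cells and 402 in 297 cells. Igkv1-117 (16 and 42 UMIs) and Igkv1-110 (15 and 57 UMIs) were the most counted kappa genes in both libraries. Among the 15 genes that varied most from cell to cell in both libraries after thinning, by the ratio of variance to mean, were the granzyme Gzma (8.86 and 7.63), S100a6 (9.73 and 4.44), Iglc1 (6.95 and 4.28), Igkc (3.7 and 3.58), the immediate-early gene Egr1 (3.18 and 3.25) and the transcription factor Mef2c (2.71 and 2.78). Gzma, a gene of the NK list, had thinned means of only 0.0562 and 0.105 UMIs per cell, and the part of RNA from other cells in its ratio was not tested. Igkc thinned to 1500 UMIs had a median of 10 UMIs (5th to 95th percentile 1 to 22) in the KO-labelled library and 8 (1 to 19) in the WT-labelled library.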
